A study of Mus musculus with 12 samples.

Results

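The EGF receptor ligands of mouse ear skin are described here with their receptor: 6 ligand genes, Epgn, Areg, Ereg, Hbegf, Tgfa and Btc, and Egfr itself. They were taken by gene name. The 7 genes carried 13 probes on the array, of which 12 were bright enough to be tested, among 37125 probes and 24080 genes in all. Ear skin RNA of C57BL/6J mice came from 5 genotypes: wild type (WT), Card14-/-, Tlr7-/-, Tlr9-/- and the double knockout Tlr7-/-Tlr9-/-. In each genotype, skin was either untreated (0 h) or taken 4 h after each mouse had 62.5 mg of a 5% imiquimod (IMQ) cream put on its ears; imiquimod is a synthetic compound that activates TLR7 and brings on a psoriasis-like dermatitis. CARD14 is a signalling scaffold of keratinocytes, and TLR9 is a receptor for DNA. The 12 single-colour arrays comprised 5 untreated arrays, 1 a genotype, and 7 IMQ arrays. The IMQ groups of Tlr7-/-Tlr9-/- and Card14-/- had 2 arrays each and those of the other genotypes 1. Each array held RNA pooled from 6 to 8 mice.

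EGF family ligands are made as membrane proteins, are cut loose by metalloproteases and bind the receptor tyrosine kinase EGFR on neighbouring or the same cells. In the epidermis EGFR drives keratinocyte growth, migration and wound repair through the RAS-MAPK and PI3K pathways, and its ligands, amphiregulin above all, are known for their high levels in psoriatic skin. Amphiregulin (Areg), epiregulin (Ereg), heparin-binding EGF-like growth factor (Hbegf), transforming growth factor alpha (Tgfa), betacellulin (Btc) and epigen (Epgn) differ in how strongly they bind the receptor and in whether they also bind ERBB4.

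Slide 2, scanned separately, carried the 4 arrays of IMQ-treated Tlr7-/-Tlr9-/- and Card14-/- skin, and slide 1 carried all others. No array of cream without imiquimod was analysed here, so imiquimod, the cream base, handling and time cannot be told apart. On each array 60.1% to 65.7% of the 59305 spots were well above background, with 0 saturated. Before normalization, the signal had a 75th percentile of 1070 to 1236 on the untreated arrays and 527 to 779 on the IMQ arrays, so overall brightness went with treatment. Levels below are log2 values after quantile normalization, which removes such differences in overall brightness. Keratinocyte markers fitted the labelled tissue, with a mean level of 11 measured markers of 15.13 to 15.30 in the untreated groups and 14.69 to 15.11 in the IMQ groups. Whole skin was measured, so more cells of a type and more RNA per cell cannot be told apart.

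At 4 h after the cream, 4 of the 7 genes had risen on average over the genotypes, all of them ligands: Epgn, Areg, Ereg and Hbegf. None of the 7 had fallen on its brightest probe. The average response, IMQ minus untreated over the 5 genotypes as pairs, was tested with limma, and the threshold was an adjusted p (Benjamini-Hochberg, over all probes) under 0.05. Over all genes, read on the brightest probe, 9.9% were called higher and 14.4% lower. Over all 37125 probes 10.6% were called higher. Epgn and the dimmer Hbegf probe passed the filter on dim probes only through their IMQ arrays, so their calls are not independent of that filter. Among probes well above background on all 12 arrays, 6 of these genes were tested and 3 were called higher, with a median of 0.76. The median response of the 7 genes was 1.04 on the log2 scale, beside -0.08 over all genes. The 7 genes were chosen with earlier results of these data known, so these comparisons with all genes are descriptive. Without the Tlr9-/- pair of arrays, 2 of the 7 genes were called, Epgn and Hbegf, and the calls over all probes dropped from 8961 to 887.

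Epigen rose most among these genes. Its 60-base probe lies in the coding part of the transcript, on mm9 at chr5:91461324-91461383, plus strand, and is shown because the largest response rests on it, together with the probe of its neighbour Areg.
Epgn probe: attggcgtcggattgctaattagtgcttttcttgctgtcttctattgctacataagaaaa
Areg probe: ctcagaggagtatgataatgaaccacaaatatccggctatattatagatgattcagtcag
Untreated skin had Epgn levels of 3.74 in WT, 4.75 in Tlr7-/-, 3.07 in Tlr9-/-, 3.32 in Tlr7-/-Tlr9-/- and 3.51 in Card14-/-. Only the untreated Tlr7-/- array was well above background, so the probe was tested only because of its IMQ arrays. After IMQ the 7 arrays lay between 6.31 and 7.16 with a median of 6.73, and all 7 were well above background. All IMQ arrays were above all untreated arrays, as the groups were for 9.91% of all probes, with the 2 Tlr7-/-Tlr9-/- arrays highest and the 2 Card14-/- arrays lowest. The floor of each untreated array was the lowest level there of a probe well above background. Measured against it on the quantile-normalized scale, Epgn was at least 6.26-fold higher, a bound for that scale only. Its value was higher in 5 of 5 genotypes. The groups had measured means of 3.68 ± 0.65 untreated and 6.74 ± 0.28 after IMQ (SD, n = 5 genotypes). Their fitted difference of 3.06 (limma, adjusted p = 0.0073) rests on untreated values that were mostly not above background. It was 1.21 (2.31-fold) after a normexp background correction and 1.72 (3.29-fold) in the deposited log2 table, both past the threshold.

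Amphiregulin, on mm9 at chr5:91570090-91570149 (plus strand, coding), was well above background on all 12 arrays. Its untreated levels were 6.00 in WT, 6.57 in Tlr7-/-, 5.04 in Tlr9-/-, 5.17 in Tlr7-/-Tlr9-/- and 5.53 in Card14-/-. The IMQ levels were 7.48 in WT, 6.70 in Tlr7-/-, 7.22 in Tlr9-/-, 6.96 and 7.13 in Tlr7-/-Tlr9-/-, and 7.03 and 6.90 in Card14-/-. The IMQ groups lay wholly above the untreated groups, as they did for 9.91% of all probes. The gap was narrow, because untreated Tlr7-/- skin was the highest untreated array and Tlr7-/- the lowest after IMQ. The response was therefore 0.13 in Tlr7-/- and 1.43 to 2.17 in the other genotypes. On average Areg rose by 1.42 ± 0.29 (SE; limma, adjusted p = 0.024), a 2.67-fold difference, in 5 of 5 genotypes. This call was the least secure of the 4, with an adjusted p of 0.069 without the WT pair, 0.081 without Tlr9-/-, 0.062 without Tlr7-/-Tlr9-/-, 0.052 without Card14-/- and 0.10 in the slide 1 genotypes alone. The difference was 0.81 after normexp.

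Epiregulin was read at chr5:91522553-91522612 (mm9, plus strand), between the probes of Epgn and Areg. Untreated levels were 11.59 in WT, 11.90 in Tlr7-/-, 11.77 in Tlr9-/-, 11.37 in Tlr7-/-Tlr9-/- and 11.83 in Card14-/-. The IMQ levels ranged from 12.56 to 13.08 with a median of 12.69, highest in Tlr9-/- and lowest in Card14-/-. The IMQ groups were all above the untreated groups, as for 9.91% of all probes. Ereg rose by 1.04 ± 0.14 (SE; limma, adjusted p = 0.011), 2.06-fold, in 5 of 5 genotypes, and by 0.68 in Tlr7-/- to 1.38 in Tlr7-/-Tlr9-/-. Without the Tlr9-/- pair the adjusted p was 0.052 at a difference of 0.97.

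Heparin-binding EGF-like growth factor rose on the brighter of its 2 probes. On that probe the untreated levels were 9.22 in WT, 9.26 in Tlr7-/-, 8.77 in Tlr9-/-, 9.16 in Tlr7-/-Tlr9-/- and 8.84 in Card14-/-. The IMQ levels lay between 10.03 and 10.36 with a median of 10.12. The groups stood clear of each other, as they did with IMQ higher for 9.91% of all probes. The spread among the IMQ groups was small at an SD of 0.12 (n = 5 genotypes). The rise was 1.09 ± 0.11 (SE; limma, adjusted p = 0.0088), 2.13-fold, in 5 of 5 genotypes. The response of the brighter Hbegf probe passed the threshold under all 17 alternatives tried. The dimmer probe, matched to Hbegf by symbol alone, was not well above background on any of the 5 untreated arrays and was above it on 5 of 7 IMQ arrays. It was tested only because of those IMQ arrays, so it is no second measure of the rise. Against the floor it was at least 1.90-fold higher, a bound for the quantile-normalized scale only. Its IMQ levels were 5.89 in WT, 5.18 in Tlr7-/- and 5.17 in Tlr9-/-, all on slide 1, and 3.61 and 4.67 in Tlr7-/-Tlr9-/- and 3.46 and 4.28 in Card14-/- on slide 2, where the lower array of each pair was not above background. The fitted difference, which rests on untreated values below background, was 1.66 (limma, adjusted p = 0.030). It was 0.41 (1.33-fold) after normexp and 0.64 (1.56-fold) in the deposited log2 table. The call was lost with no filter on dim probes (adjusted p = 0.057), without the Tlr7-/- pair (0.089), without Tlr9-/- (0.088) and without Tlr7-/-Tlr9-/- (0.055).

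The direction of these rises was the same whichever slide held the IMQ arrays. In the 3 genotypes whose arrays all lay on slide 1, the mean response was 1.26 for Areg, 1.03 for Ereg and 1.02 for Hbegf on its brighter probe. In the other 2 genotypes, with IMQ arrays on slide 2, it was 1.65, 1.06 and 1.21.

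**Figure D1:**
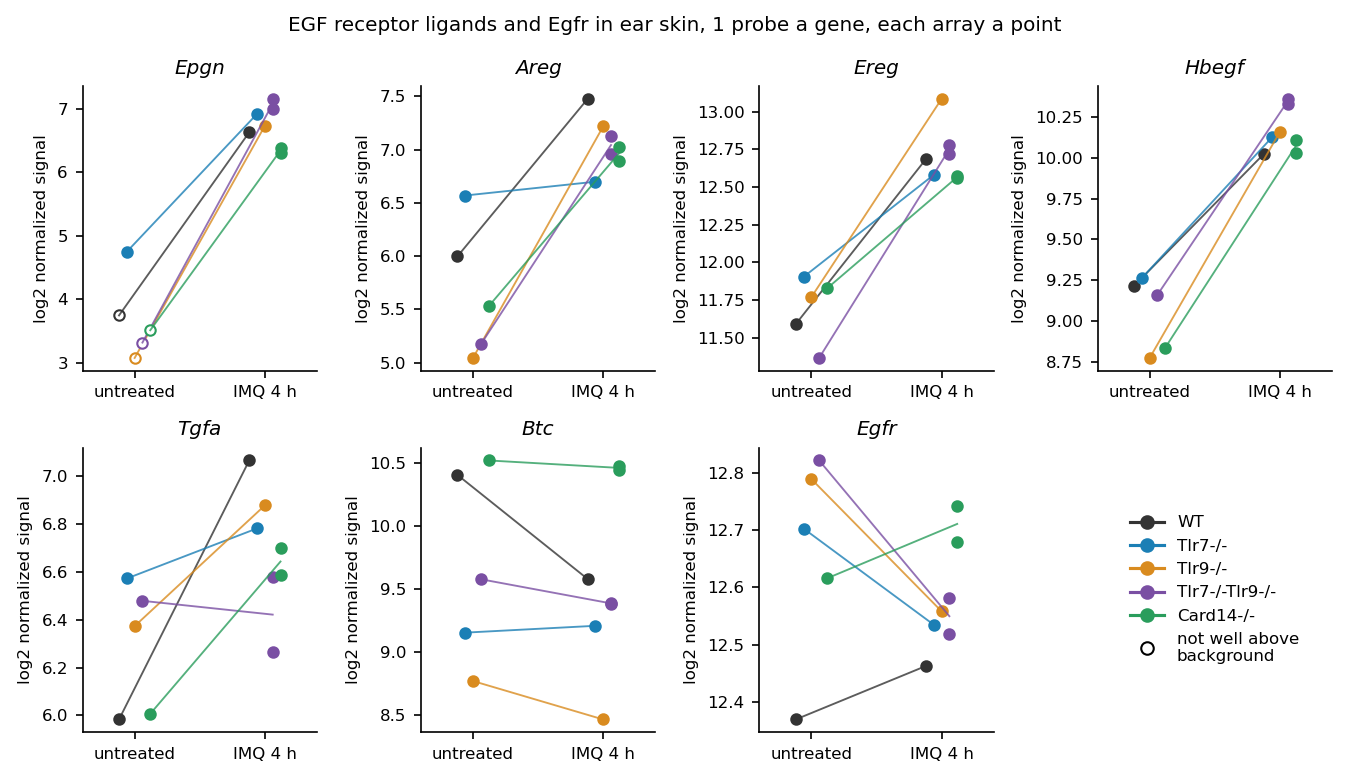
Each point is 1 array, in log2 normalized signal on the y axis, for the brightest probe of each gene; colours are genotypes, lines join a genotype's untreated value to the mean of its IMQ arrays, and open points are not well above background. Epgn, Areg, Ereg and Hbegf separate the treatments, Btc levels go by genotype and Egfr stays between 12.37 and 12.82.

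Transforming growth factor alpha gave opposite signs on its 2 probes, and neither passed the threshold. Probe 1, at chr6:86159850-86159908 on mm9 (plus strand), was matched to Tgfa by symbol alone and its transcript was not checked here. It had untreated levels of 5.98 in WT, 6.57 in Tlr7-/-, 6.37 in Tlr9-/-, 6.48 in Tlr7-/-Tlr9-/- and 6.01 in Card14-/-. Its IMQ levels were 6.26 to 7.06 with a median of 6.70, overlapping the untreated range, and the mean difference was 0.47 ± 0.17 (SE; limma, adjusted p = 0.091). Probe 2, at chr6:86224838-86224897 and matched to a Tgfa transcript by accession, ran from 6.17 to 6.60 untreated and from 5.42 to 6.16 after IMQ. These ranges did not overlap, and 13.9% of all probes had IMQ groups wholly below the untreated groups. Its mean difference was -0.51 ± 0.15 (SE; limma, adjusted p = 0.058), lower in 5 of 5 genotypes. Probe 2 passed the threshold under 5 of its 16 alternatives, among them the deposited log2 table at -0.39 (adjusted p = 0.040). The direction of Tgfa as a gene is therefore not given.

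Betacellulin, whose probe lies at chr5:91787139-91787198 (mm9, minus strand), differed more between genotypes than between treatments by value. Untreated levels were 10.41 in WT, 9.15 in Tlr7-/-, 8.77 in Tlr9-/-, 9.58 in Tlr7-/-Tlr9-/- and 10.52 in Card14-/-. After IMQ they were 9.58 in WT, 9.21 in Tlr7-/-, 8.46 in Tlr9-/-, 9.38 and 9.39 in Tlr7-/-Tlr9-/-, and 10.45 and 10.48 in Card14-/-. Card14-/- skin was highest and Tlr9-/- skin lowest in both states, and WT moved most, by -0.83. The average response was -0.27 ± 0.14 (SE; limma, adjusted p = 0.20), not past the threshold. A second Btc probe was not well above background on any of the 12 arrays and was not tested.

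In untreated skin Btc was the 1 gene of the 7 with a called difference from WT. It was lower than WT by 1.26 on the log2 scale in Tlr7-/- (2.39-fold; limma, adjusted p = 0.036) and by 1.64 in Tlr9-/- (3.12-fold; adjusted p = 0.027). A call between groups also needed a difference of at least 1. Over all probes 0.501% were called lower in Tlr7-/- and 1.25% in Tlr9-/-. The difference was -0.83 in Tlr7-/-Tlr9-/- (adjusted p = 0.057) and 0.11 in Card14-/- (adjusted p = 0.33), where 0.129% and 0.172% of all probes were called. Each of these compares single arrays, judged by the spread between the 2 pairs of repeat IMQ arrays, and all 4 share the WT array. Leaving out any 1 repeat array raised the adjusted p to between 0.13 and 0.20.

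Several marker lists were, like Btc, lowest in Tlr9-/- in both states: those of fibroblasts, Schwann cells and nerve, adipocytes, macrophages and monocytes, and erythroid cells. The mean level of 11 fibroblast markers was 14.66 in untreated WT, 14.00 in Tlr7-/-, 13.71 in Tlr9-/-, 14.26 in Tlr7-/-Tlr9-/- and 14.29 in Card14-/-. After IMQ it was 14.13, 14.05, 13.29, 13.92 and 14.20 in the same order. In Tlr9-/- the untreated and IMQ means were 11.36 and 10.85 for Schwann cells and nerve, 11.72 and 11.65 for adipocytes, 11.24 and 11.36 for macrophages and monocytes, and 10.09 and 10.94 for erythroid cells. Card14-/-, where Btc was highest in both states, was highest after IMQ in the fibroblast, Schwann cell and erythroid lists, whereas WT was highest untreated in all of these lists. All 11 fibroblast markers were well above background on all 12 arrays, and the part of these lists in the Btc pattern was not tested.

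**Figure D2:**
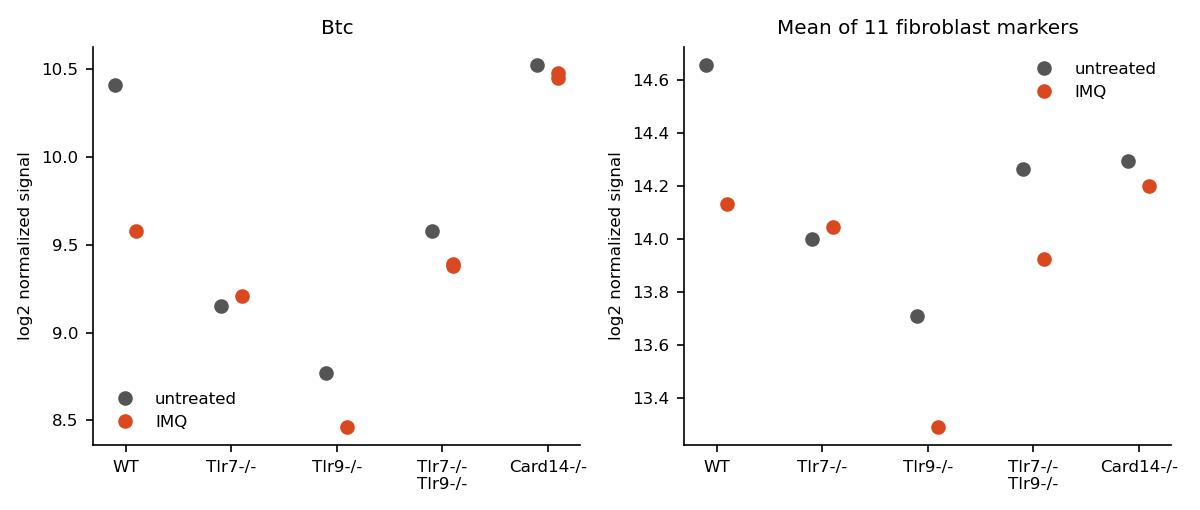
Left, Btc in log2 normalized signal by genotype, each point 1 array; right, the mean log2 level of 11 fibroblast markers, each point 1 group. Grey is untreated and orange is IMQ; in both panels Tlr9-/- is lowest, as it also is in 4 other marker lists, and Card14-/- is highest in Btc.

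The receptor itself did not pass the threshold on any of its 4 probes. On the brightest, at chr11:16813815-16813874 (mm9, plus strand), untreated levels were 12.37 in WT, 12.70 in Tlr7-/-, 12.79 in Tlr9-/-, 12.82 in Tlr7-/-Tlr9-/- and 12.62 in Card14-/-. The IMQ arrays lay between 12.46 and 12.74 with a median of 12.56, inside the untreated range. The average response was -0.10 ± 0.09 (SE; limma, adjusted p = 0.46). Probes 2 and 3, at chr11:16812181-16812240 and chr11:16783545-16783604, gave -0.20 ± 0.12 (adjusted p = 0.26) and -0.05 ± 0.07 (adjusted p = 0.63). With all 12 arrays and slide as a term, probe 2 was lower by value at -0.39 and passed the threshold (limma, adjusted p = 0.0038). So did 18465 of 37125 probes in that fit, which counts repeat arrays singly. The -0.39 is the mean response of the slide 1 genotypes, and the other genotypes gave 0.09 on average.

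The fourth Egfr probe, at chr11:16655638-16655697, was matched by symbol alone and went with the slide. Untreated levels were 4.81 to 5.27. After IMQ they were 5.82 in WT, 5.61 in Tlr7-/- and 5.81 in Tlr9-/-, all on slide 1, but 4.69 and 4.85 in Tlr7-/-Tlr9-/- and 4.57 and 4.68 in Card14-/-, on slide 2. Its response was 0.67 over the slide 1 genotypes (limma, adjusted p = 0.042) and -0.34 over the others, with an average of 0.27 ± 0.24 (SE; adjusted p = 0.43). Slide and genotype cannot be told apart for this probe.

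**Figure D3:**
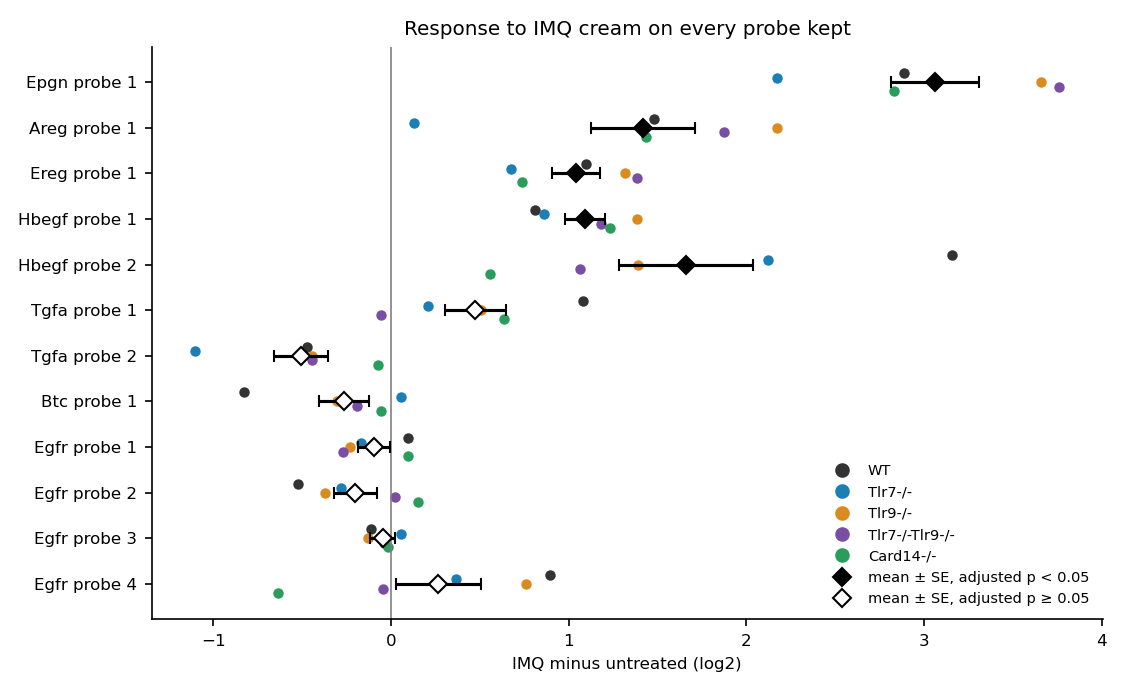
Average response (diamond, mean over 5 genotypes ± SE) and the response in each genotype (coloured points) on the log2 scale for the 12 probes tested; filled diamonds have an adjusted p under 0.05. The 5 filled diamonds belong to Epgn, Areg, Ereg and both Hbegf probes, and the 2 Tgfa probes lie on opposite sides of 0; the sizes for Epgn and Hbegf probe 2 rest on untreated values mostly or wholly not above background.

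The design asks whether the response needs Tlr7, whose product binds imiquimod, or Tlr9 or Card14. By value, the 4 ligands that rose on average were higher after IMQ in all 5 genotypes, including both that lack Tlr7. In Tlr7-/-, however, Areg was higher by only 0.13, and the untreated Epgn level of Tlr7-/-Tlr9-/- was not above background. Epgn reached 6.63 in WT, 6.92 in Tlr7-/-, 6.73 in Tlr9-/-, a mean of 7.08 in Tlr7-/-Tlr9-/- and a mean of 6.34 in Card14-/- after IMQ. The size of its response is not compared between genotypes, because the untreated arrays other than that of Tlr7-/- give only a bound. The Hbegf response on the brighter probe was 0.81 in WT, 0.86 in Tlr7-/-, 1.38 in Tlr9-/-, 1.18 in Tlr7-/-Tlr9-/- and 1.23 in Card14-/-. No knockout was called different from WT, which does not show that the responses were equal.

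Dependence on Tlr7 was tested on the 5 responses, 2 Tlr7-deficient genotypes against 3 others. The difference, deficient minus other, was -0.70 for Areg (1.00 against 1.70), -0.02 for Ereg and -0.12 for Hbegf. The exact two-sided permutation test over the genotypes gave p = 0.4 for Areg, 1 for Ereg and 0.7 for Hbegf, and cannot go below 0.1 in this design. With limma, 0 of 37125 probes were called, or 0%, although 1056 had an unadjusted p under 0.05. In simulated data this limma test recovered 0% of planted differences, even at a size of 2 on the log2 scale. The lack of calls therefore cannot tell whether the response depends on Tlr7. Tgfa probe 1 had the lowest p that the permutation allows, 0.1, at 0.08 against 0.74. The Areg value rests on Tlr7-/-: without that pair, the difference was 0.18.

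The response of each knockout was also set against that of WT, in 4 contrasts that share the WT arrays. On these 12 probes 1 of 48 such differences was called, that of Egfr probe 4 in Card14-/-, at -1.53 (limma, adjusted p = 0.020). In simulated data the same fit recovered 0% of planted WT responses, even at a size of 2, so differences not called do not show equal responses. Over all probes 2.61% were called in Tlr7-/-, 0.388% in Tlr9-/-, 11.1% in Tlr7-/-Tlr9-/- and 11.4% in Card14-/-, and the latter pair have their IMQ arrays on slide 2. For Areg the response in Tlr7-/- minus that in WT was -1.35 ± 0.19 (SE), with an adjusted p of 0.066. For Btc every knockout lay above WT, whose own response was -0.83: by 0.88 in Tlr7-/- (adjusted p = 0.045), 0.52 in Tlr9-/- (0.11), 0.64 in Tlr7-/-Tlr9-/- (0.024) and 0.77 in Card14-/- (0.019), all below the size limit of 1.

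Untreated Tlr7-/- skin had the highest untreated level of Epgn, Areg, Ereg, Hbegf probe 1 and Tgfa probe 1. For Epgn it was the only untreated array well above background, so no difference from WT is given. Against untreated WT the differences were 0.57 for Areg (limma, adjusted p = 0.12), 0.31 for Ereg (0.10), 0.05 for Hbegf (0.73) and 0.59 for Tgfa (0.19), none of them called. Hair follicle markers were also highest on that untreated array, with a mean of 16 markers of 12.42 against 9.05 to 10.80 in the other untreated groups, and 7.63 in Tlr7-/- after IMQ. Over the IMQ groups this mean ran from 6.65 to 12.68, 0 of the 16 markers were called, and their part in the ligand levels was not tested.

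Within single genotypes, the repeat IMQ arrays gave the only spread, and nothing states whether they share a pool, so p-values from them measure a spread between arrays that may be technical. Their median SD of 0.055 was close to that of repeat spots within an array, 0.054. On that footing 18 of 60 tests were called: 5 of the 12 probes in WT (15.6% of all probes), 2 in Tlr7-/- (7.29%), 4 in Tlr9-/- (9.76%), 4 in Tlr7-/-Tlr9-/- (5.5%) and 3 in Card14-/- (3.78%). Epgn was called in each genotype, against untreated values not well above background in all but Tlr7-/-, and Areg in all but Tlr7-/-. The WT calls include the dimmer Hbegf probe and Tgfa probe 1, higher by 1.08, but not the brighter Hbegf probe at 0.81. In Tlr7-/- the calls were Epgn, higher, and Tgfa probe 2, lower. Judged by the residual spread of genotype and treatment together, 0 were called in any genotype, on these probes or over all (0%), although 2665 to 9610 of all probes had an unadjusted p under 0.05 in limma.

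Of the other genes of the pathway, the receptors and remaining ligands mostly did not pass the threshold. In that list 1 of 7 tested genes rose and 2 fell, beside 9.9% and 14.4% of all genes. The median was -0.07, beside -0.08 over all genes. Egf, the founding ligand, fell by 0.75 on the log2 scale (adjusted p = 0.011) from a mean of 8.17 to 7.43, lower in all 5 genotypes. Erbb3, the receptor that binds neuregulins and needs a partner kinase, fell by 0.60 on its brightest probe (adjusted p = 0.019), while its other probe gave 0.50. Nrg4, a neuregulin that binds ERBB4, rose by 0.37 (adjusted p = 0.023). Egf passed the threshold under all 17 alternatives, whereas the Nrg4 call was lost in the slide 1 genotypes alone and without any 1 of the pairs except Card14-/-, and the Erbb3 call without the WT, Tlr7-/- or Tlr9-/- pair.

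Of 9 genes that act in releasing ligands from the membrane, with a median of -0.16, none rose, beside 9.9% of all genes. Beside 14.4% of all genes, 1 of the 9 fell. It was Adam9, a membrane metalloprotease, at -0.34 (adjusted p = 0.030), and no call remained when any genotype pair was left out. With other scalings or background corrections 1 of the 9 was called higher.

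Among 19 feedback inhibitors of the pathway 4 rose and 3 fell, beside 9.9% and 14.4% of all genes, with a median of 0.00. Without the Tlr9-/- pair 2 rose and 1 fell, and without the Tlr7-/- pair 4 rose and 1 fell. The 3 dual-specificity phosphatases that dephosphorylate ERK or related kinases all rose: Dusp6 by 0.99 (from 11.65 to 12.64, adjusted p = 0.0079), Dusp5 by 0.96 and Dusp4 by 0.90. Socs4, a suppressor of cytokine and EGFR signalling, rose by 0.58, although another of its probes gave -0.52. Lrig1, a transmembrane protein that promotes EGFR breakdown, fell by 0.74 (adjusted p = 0.0096) on its brightest probe and by 0.93 on the other. The Lrig2 and Lrig3 falls, 0.38 and 0.34, were not shared by all of their probes. Dusp6, Dusp4 and Lrig1 passed the threshold under all 17 alternatives, and Dusp5 under all but the omission of the Tlr9-/- pair (adjusted p = 0.053).

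Of 23 genes of the RAS-MAPK and PI3K core, 3 rose and 5 fell, beside 9.9% and 14.4% of all genes. The median was -0.11. Pik3ca, a catalytic subunit of PI3K, rose by 1.92 (adjusted p = 0.020), but by 3.11, 2.42 and 2.10 in WT, Tlr7-/- and Tlr9-/- on slide 1 and by 1.34 and 0.61 in Tlr7-/-Tlr9-/- and Card14-/- on slide 2. The adaptor gene Gab1 fell by 0.60 and Pik3cb, another PI3K catalytic subunit, by 0.49. Without the Tlr9-/- pair, or without the Tlr7-/- pair, 1 gene of the list rose and none fell.

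Of 25 genes known to be induced by EGFR signalling, 17 rose and 1 fell, beside 9.9% and 14.4% of all genes. The list median was 0.69, beside -0.08 over all genes. Many genes of the list also respond to other stimuli. The list was chosen with earlier results of these data known, so its count and median describe these genes and are no test of EGFR signalling. Fosl1, an AP-1 subunit, rose by 2.62 (6.16-fold; adjusted p = 0.0050), from 5.16 to 6.16 over the untreated groups to 7.83 to 8.72 over the IMQ groups. Vegfa, an angiogenic factor, rose by 1.99 on its brightest probe, from 3.36 in WT to 0.80 in Card14-/-, and other Vegfa probes went down to -0.21. Fos, another AP-1 subunit, rose by 1.55, with responses of 0.84 in WT to 2.05 in Card14-/-. In the slide 1 genotypes the mean response was 2.54 for Vegfa and 1.23 for Fos, against 1.15 and 2.04 in the others. Slide and genotype cannot be told apart for these ranges. Ptgs2, the inducible cyclooxygenase, rose by 1.42 (adjusted p = 0.0099), in 5 of 5 genotypes. The gene that fell was Plau, the urokinase, at -0.32. Without the Tlr9-/- pair 7 of the 25 were called higher, with a median of 0.73.

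**Figure D4:**
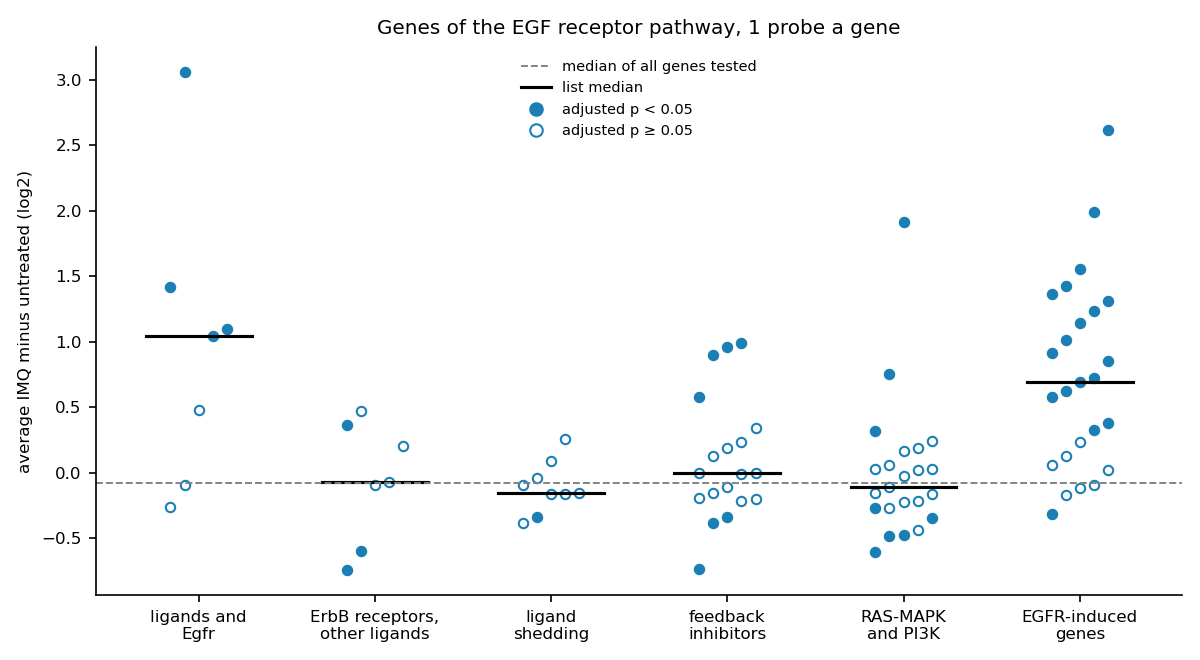
Average response in log2 (y axis) of each gene, read on its brightest probe, in 6 lists of the EGF receptor pathway; filled points have an adjusted p under 0.05, black bars are list medians and the dashed line is the median of all genes, -0.08. The ligands with Egfr and the EGFR-induced genes have medians of 1.04 and 0.69, and the other 4 lists lie between -0.16 and 0.00. The lists were chosen with earlier results of these data known.

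Marker lists of other cell types were read in the same way. Of all genes 9.9% were called higher and 14.4% lower, so a single call among 8 or 9 markers is near that share. The T cell list of 9 markers had 6 that rose and 1 that fell, and its mean lay at 9.68 to 9.87 in untreated groups and 9.85 to 10.36 after IMQ. Of 9 mast cell markers 1 rose, with means of 9.60 to 10.17 and 9.58 to 10.14. Of 8 neutrophil markers 1 rose, with means of 8.16 to 8.73 and 8.31 to 9.11. Of 10 Langerhans and dendritic cell markers 4 rose and 1 fell, and of 12 macrophage and monocyte markers 3 rose and 1 fell. Among the marker lists the erythroid one had the highest median: 5 of 6 markers rose (median 0.79). Of 10 endothelial markers 5 rose and 1 fell (median 0.49). In the other direction, 5 of 10 Schwann cell and nerve markers fell and none rose (median -0.40), and 4 of 10 skeletal muscle markers fell while 1 rose (median -0.29). Of 11 fibroblast markers 3 fell and none rose, of 11 keratinocyte markers 3 fell and 1 rose, of 10 sebaceous gland markers 3 fell and 1 rose, and of 8 adipocyte markers 1 rose. T cells and mast cells can make amphiregulin, and the part of any of these lists in the ligand rises was not tested.

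Epgn, Ereg, Areg and Btc are neighbours on chromosome 5, in that order along the chromosome by the mm9 positions of their probes, with a group of chemokine genes on the other side of Epgn. Within 500 kb of the Epgn probe, 11 named genes were tested and 5 were called, all higher, beside 9.9% of all genes called higher. Besides the 3 ligands, already known to have risen, these were Cxcl1, a neutrophil-attracting chemokine 139 kb away, at 4.02 ± 0.14 (SE; limma, adjusted p = 0.0043), and Pf4 at 0.40 (adjusted p = 0.040). The chemokine genes Cxcl5, above background on 4 arrays, and Ppbp were lower by value and not called, at -1.69 (limma, adjusted p = 0.084) and -0.53 (0.41). Mthfd2l, a mitochondrial folate enzyme whose probe lies 11.1 kb from that of Epgn, gave -0.32 (adjusted p = 0.12). Btc, 326 kb on the other side, was not called, so the rise was not shared by all genes of the interval. These neighbours were picked by position after the responses were known.

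**Figure D5:**
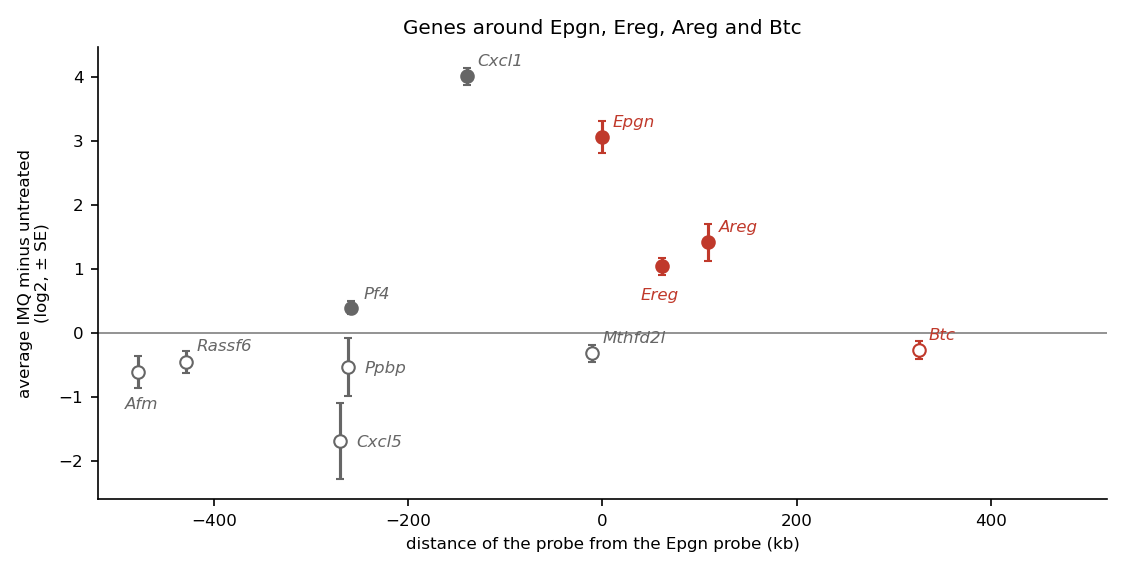
Average response (log2, ± SE) of the 11 named genes tested within 500 kb of the Epgn probe, against the distance of their probes in kb; filled points have an adjusted p under 0.05 and red marks ligands. Cxcl1 and Epgn respond most, at 4.02 and 3.06, the latter from untreated values mostly not above background, and Mthfd2l between them lies below 0.

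The starts of 3 of these neighbours are shown because 2 of the genes rose and the third, Btc, was not called. The 250 bases before the annotated start come from RefSeq on GRCm38.p6, at chr5:91027267-91027516 (plus strand) for Epgn, chr5:91139349-91139598 (plus) for Areg and chr5:91402995-91403244 (minus) for Btc, and capitals mark motif matches.
Epgn upstream: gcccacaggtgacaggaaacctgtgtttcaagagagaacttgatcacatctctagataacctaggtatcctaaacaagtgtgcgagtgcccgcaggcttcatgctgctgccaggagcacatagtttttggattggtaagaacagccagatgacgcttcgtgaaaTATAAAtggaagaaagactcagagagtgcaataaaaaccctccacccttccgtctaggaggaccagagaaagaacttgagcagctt
Areg upstream: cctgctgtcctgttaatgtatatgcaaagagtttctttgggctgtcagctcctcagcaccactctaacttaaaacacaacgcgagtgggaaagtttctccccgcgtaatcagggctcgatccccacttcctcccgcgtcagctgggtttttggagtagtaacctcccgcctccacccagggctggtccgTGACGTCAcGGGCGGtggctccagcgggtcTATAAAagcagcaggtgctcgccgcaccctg
Btc upstream: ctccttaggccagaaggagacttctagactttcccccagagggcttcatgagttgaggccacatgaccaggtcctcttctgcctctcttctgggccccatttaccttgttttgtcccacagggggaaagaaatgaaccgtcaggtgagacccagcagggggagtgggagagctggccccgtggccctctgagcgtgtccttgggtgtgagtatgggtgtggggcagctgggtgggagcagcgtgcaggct
Both strands were searched for the AP-1 motif TGANTCA, the cAMP response element (CRE) TGACGTCA, the TATA box letters TATAAA and the Sp1 letters GGGCGG, and for the CArG box and NF-kB motifs by name. Areg held a CRE 61 to 54 bases before its start, GGGCGG at 52 to 47 and TATAAA at 31 to 26, none of them overlapping. Epgn held TATAAA 86 to 81 bases before its start, and Btc held none of the 6 motifs. Of 32851 windows of this length, 1.55% held the CRE, 12.4% TATAAA, 32.7% GGGCGG, 6.75% AP-1, 3.90% the NF-kB motif and 1.47% the CArG box. Among the 5 of 7 genes with a window, Tgfa and Egfr held GGGCGG alone.

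Genes most alike in level were found by Pearson's r over the 10 group values, which share their arrays, among 17939 others. For Epgn, with 4 of its group values not above background, they were Igsf3 (r = 0.99), Egr1, a zinc finger factor induced by growth factors (0.98), and H2bc7 (0.98). For Hbegf they were the ubiquitin ligase gene Siah2 (0.99), Fosl1 (0.99) and Utp4 (0.98). Areg was most like AF366264 (0.99), Kif19a (0.97) and Arf5 (0.96), and Ereg most like Klrb1a (0.99), Tulp1 (0.98) and Samd8 (0.98). Btc went with Igf2bp3 (0.97), Cpq (0.96) and Morrbid (0.95), Tgfa probe 1 with Lypla2 (0.97), Cacna1f (0.97) and Gm17745 (0.96), and Egfr with Ubn1 (0.96), Egfros (0.95) and Med10 (0.95).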

How the data were processed

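RNA of whole ear skin was read on 12 single-colour Agilent arrays, grouped by the sample labels. Per the file headers, the deposited spot values are intensity values from Agilent Feature Extraction 10.7.3.1 (10.5.1.1 in the submitters' processing notes), and those used had local background subtracted and spatial trends removed. A log2 table that the authors made with limma, by a normalization the labels call quartile, served as an alternative.

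Intensities were put on the log2 scale, averaged over the spots of a probe and brought to common quantiles between arrays. Tools were R 4.3.3 with limma 3.58.1 and the data.table package in version 1.17.8, Python 3.11.15, numpy 2.4.6, pandas 2.3.3 and matplotlib 3.10.9. Left out were 235 of 56605 probes with outlier flags, and probes well above background on fewer than 2 arrays. Names were matched by accession for 32994 probes, by symbol for 10224 and by synonym for 520, and 12867 kept the file's name. The average response was fitted with limma on the 10 group values, repeat arrays averaged, with genotype as a block (4 residual degrees of freedom), Tlr7 dependence on the 5 differences (3), and group contrasts on all arrays (2), where a call also needed an absolute log2 difference of at least 1. Adjusted p-values are Benjamini-Hochberg over all 37125 probes and two-sided. A fold given as at least a value is set against the lowest level of a probe well above background on each array, 3.63 to 4.38 in log2. Such a bound holds for the quantile-normalized values only. Scripts were tested on simulated data. There the average-response test recovered 4% of planted differences of 0.5 on the log2 scale, 44% of 1 and 82% of 2. The group fit recovered 0% of planted WT responses, even at 2. A missing call therefore does not show that a level or response stayed the same. The number of arrays limits the precision.

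All 7 genes are described on every probe; of other pathway genes, the counts and up to 4 largest called responses are given, and others named were chosen after their values were seen. The members and lists were chosen with earlier results of these data known. Krt5, Nrg3 and Il24 were among listed genes not used here, and 1 other listed gene is not reported here by name. Alternatives were 75th percentile scaling, normexp with offset 50, the deposited log2 values, other filters, 1 probe per gene, slide terms and leaving out arrays or genotype pairs.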

Additional observations from a re-analysis of the deposited data

Results flagged for a closer look

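Egfr probe 4 differed between genotypes in its response: the response in Card14-/- minus that in WT was -1.53 on the log2 scale (limma, adjusted p = 0.020), because the level went up by 0.89 in WT and down by 0.64 in Card14-/-. The difference was -0.55 after normexp and -0.88 in the deposited log2 table, both below the size limit, and its adjusted p was 0.061 to 0.083 when any 1 repeat array was left out. The IMQ arrays of these genotypes lay on different slides, which cannot be told apart from genotype, and the other 3 Egfr probes gave 0.00, 0.68 and 0.09.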

How the results depend on the processing

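Over 17 alternatives, not all of which gave a value for every probe, the average response of the 12 probes kept its direction in all 197 values, and 179 stayed on the same side of the threshold. The count of called probes was 8961, 18465 with genotype and slide blocks on all 12 arrays, and 887 to 8869 when arrays or genotype pairs were left out; the called genes of the 7 were then 2 to 4. With 75th percentile scaling 54.6% of called probes were higher, against 43.9%, and the median of all probes was 0.01 in place of -0.07. Called single-genotype responses, 18, numbered 3 to 8 without a repeat array and 0 with the additive spread. Called response differences, 1, numbered 3 with 75th percentile scaling and with probes above background on all 12 arrays, 0 after normexp or with 1 probe per gene, and 0 to 0 without a repeat array; the 2 called untreated differences likewise fell to 0. Tlr7 dependence changed sign for Epgn, whose size rests on untreated values below background, after normexp (0.086) and for Ereg with 75th percentile scaling (0.036) and the deposited values (0.015). When arrays or pairs were left out it ran from -0.95 to 0.64 for Epgn, -1.57 to 0.18 for Areg, -0.37 to 0.34 for Ereg and -0.28 to 0.043 for Hbegf. The causes were not tested. The average response already pairs untreated and IMQ skin by genotype. By replicate number, no paired analysis was possible because the groups share only number 1. Signal over background limits Epgn and the dimmer Hbegf probe.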
